A study of Mus musculus with 4 samples.

Results

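Enteroendocrine cells are the scattered hormone-secreting cells of the gut lining. The genes described here were *Chga*, *Gcg*, *Pyy*, *Insl5*, *Sst*, *Cck*, *Nts*, *Tph1* and *Neurod1*, which mark these cells, together with *Iapp*, the gene of the peptide hormone amylin. Members were every non-control probe carrying 1 of these gene names, which gave 10 genes of the 22368 named genes on the array and 11 probes of 39429. *Neurod1* had 2 probes and each of the others had 1. *Iapp* was taken because it fell in both AOM pools in an earlier look at these arrays, so its AOM to vehicle values chose it and are given only as a description.

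RNA of mouse colon was measured in 4 pools, each of 3 to 5 male mice aged 42 weeks on the B6.129 (n3) background. Azoxymethane (AOM) is a colon carcinogen. The pools were *Pla2g3*+/+ with vehicle, *Pla2g3*-/- with vehicle, *Pla2g3*+/+ with AOM and *Pla2g3*-/- with AOM, where *Pla2g3* encodes a secreted phospholipase A2 and the +/+ animals were littermates. Vehicle was saline, AOM was given intraperitoneally at 10 mg/kg once weekly for 6 weeks, and tissue was taken 28 weeks after the last injection. Each pool was hybridized to 1 one-color array, all on 1 slide, so no group has replicates, no p-value is given, and array position and group cannot be told apart.

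In the colon, L cells secrete glucagon-like peptides from proglucagon (*Gcg*), peptide YY (*Pyy*) and, in the distal gut, insulin-like peptide 5 (*Insl5*), which act on appetite, insulin secretion and motility. D cells secrete somatostatin (*Sst*), a general inhibitor of hormone release, I cells secrete cholecystokinin (*Cck*), N cells secrete neurotensin (*Nts*), and enterochromaffin cells make serotonin through tryptophan hydroxylase 1 (*Tph1*). Single enteroendocrine cells often make several of these peptides. Chromogranin A (*Chga*) is a core protein of the secretory granules, *Neurod1* is a transcription factor of the endocrine lineage, and amylin is best known as the peptide that pancreatic beta cells release with insulin. In whole tissue, fewer cells of a type and less RNA per cell cannot be told apart.

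The 60-base probes of 3 of these genes are shown because they stand for the 3 patterns met below, *Insl5* for a deeper fall in +/+, *Nts* for a deeper fall in -/- and *Pyy* for a signal largely kept in +/+. Their places on mm9 were chr10:101944967-101945026 for *Nts*, chr11:101968311-101968370 for *Pyy* and chr4:102690720-102690779 for *Insl5*.
Nts probe: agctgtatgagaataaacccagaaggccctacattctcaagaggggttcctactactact
Pyy probe: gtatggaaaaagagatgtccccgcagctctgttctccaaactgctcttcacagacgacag
Insl5 probe: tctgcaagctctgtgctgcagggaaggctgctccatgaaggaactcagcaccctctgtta

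The 250 bases upstream of the start of *Iapp* (GRCm38.p6, chr6:142298175-142298424, plus strand), *Nts* (chr10:102490419-102490668, minus strand) and *Sst* (chr16:23890845-23891094, minus strand) are shown from RefSeq because *Iapp* and *Sst* were not well above background in at least 1 AOM pool and *Nts* had the lowest measured AOM to vehicle ratio in -/-, where that of *Iapp* is only a bound, and capitals mark the E-box letters CANNTG, the core read by *Neurod1* and related factors, and the cAMP response element TGACGTCA.
Iapp promoter: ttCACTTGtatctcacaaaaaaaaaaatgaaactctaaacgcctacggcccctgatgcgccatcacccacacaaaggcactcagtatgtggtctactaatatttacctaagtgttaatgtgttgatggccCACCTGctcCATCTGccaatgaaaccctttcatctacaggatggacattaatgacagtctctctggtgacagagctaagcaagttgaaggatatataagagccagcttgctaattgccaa
Nts promoter: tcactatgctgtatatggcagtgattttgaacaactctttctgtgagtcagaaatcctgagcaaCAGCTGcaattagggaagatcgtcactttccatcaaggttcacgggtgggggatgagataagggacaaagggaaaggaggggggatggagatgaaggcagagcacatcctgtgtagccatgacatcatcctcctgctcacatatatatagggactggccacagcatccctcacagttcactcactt
Sst promoter: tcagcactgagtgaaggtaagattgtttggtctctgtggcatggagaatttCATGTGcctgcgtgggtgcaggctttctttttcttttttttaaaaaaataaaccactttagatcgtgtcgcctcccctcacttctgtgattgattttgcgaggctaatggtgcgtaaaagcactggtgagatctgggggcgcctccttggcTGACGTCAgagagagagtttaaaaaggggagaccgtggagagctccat

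Both strands were searched and the motifs did not overlap. CANNTG occurred upstream of 9 of the 10 genes, all but *Tph1*, and in 66.2% of 32851 RefSeq promoters of the same length, so its presence does not set these genes apart. TGACGTCA occurred upstream of *Sst* alone among the 10 genes and in 1.55% of all promoters. TATAAA, searched as the core promoter element, occurred upstream of *Gcg* and *Insl5* and in 12.4% of all promoters.

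Levels are given as the background-corrected signal of a probe divided by the 75th percentile of that array, which was an intensity of 645.6 and 649.8 on the vehicle arrays and 1309 and 1169 on the AOM arrays in the order +/+, -/-. Between 64.8% and 69.4% of spots were well above background and none were saturated. The brightest *Pla2g3* probe read 0.531 and 0.656 in the vehicle pools and 0.232 and 1.40 in the AOM pools labeled +/+ and -/-. It was therefore not lower in either pool labeled *Pla2g3*-/-, and neither were the other probes of the gene. These signals do not bear out the labels, and alone they cannot show whether the labels are right. Where the deletion lies is not given in the sources used here, and every difference between genotypes below compares the pools labeled so.

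With vehicle, these genes lay within 2-fold between genotypes, and after AOM most were lower past 2-fold in both genotypes. *Pyy* was largely kept in +/+, and *Chga* and *Neurod1* were not lowered past 2-fold in -/-. A ratio past 2-fold, the threshold of the study, is called higher or lower, and its share among all genes measured is given as background. In the vehicle pools 0 of 10 genes were higher and 0 lower in -/-, beside 1.92% and 1.32% of 16391 genes (3.24% in either direction). After AOM in the +/+ pools 9 of 10 genes were lower and 0 higher, beside 22.4% and 15.1% of 17275 genes (37.5% in either direction). After AOM in the -/- pools 8 were lower and 1, *Neurod1*, was higher, beside 15.1% and 9.65% of 16514 genes (24.8% in either direction). *Iapp*, chosen on these ratios, is among the lower genes in both counts. Between genotypes after AOM, 9 of the 10 genes had a value, of which 5 were higher and 2 lower in the -/- pool, beside 15.1% and 12.9% of 17194 genes (28.0% in either direction).

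**Figure D1:**
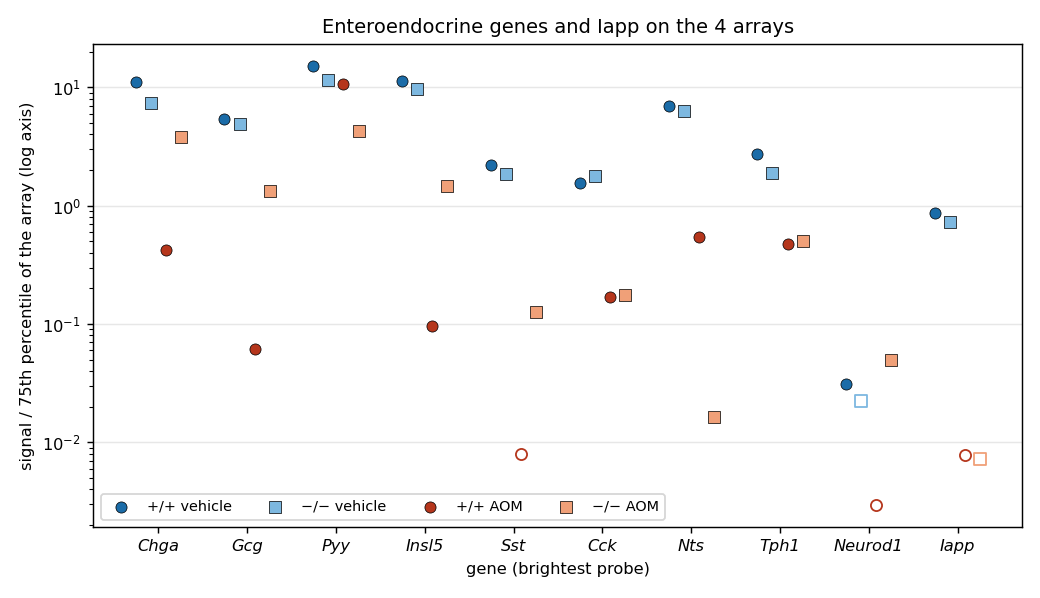
Level of each gene (signal over the 75th percentile of its array, log axis) in the 4 pools, 1 array each. Hollow points were not well above background. Vehicle points of each gene lie close together. The AOM points lie apart for Chga, Gcg, Insl5, Sst, Nts and Pyy (Gcg at 0.0611 in +/+ and 1.32 in -/-) and together for Cck and Tph1, and the Neurod1 point of -/- AOM lies above its vehicle points.

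*Chga*, the general granule marker (chr12:103803083-103803142 on mm9), had levels of 11.1 and 7.42 in the +/+ and -/- vehicle pools and 0.418 and 3.80 in the +/+ and -/- AOM pools. It was 26.5-fold lower after AOM in +/+ and 1.96-fold lower in -/-, just inside the 2-fold threshold. The -/- AOM pool was thus 9.08-fold above the +/+ AOM pool, whereas the log2 ratio of -/- to +/+ with vehicle was -0.58. *Neurod1* was close to background throughout. Its brighter probe (chr2:79294309-79294368) read 0.0310 in the +/+ vehicle pool and 0.0495 in the -/- AOM pool, and its signals of 0.0225 in the -/- vehicle pool and 0.00296 in the +/+ AOM pool were not well above background. Against the lowest level well above background on those arrays, it was at least 2.47-fold lower after AOM in +/+ and at least 2.18-fold higher in -/-. The +/+ call was lost without scaling between arrays (log2 -0.28), with normexp and quantile normalization (-0.20) and with the dimmer probe (-0.48), and the -/- call with normexp (0.24). These opposite bounds rest on the brighter probe alone, since the dimmer one (chr2:79293621-79293680) was well above background only in the +/+ vehicle pool, at 0.0176.

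The L-cell hormones did not change together. *Gcg* (chr2:62312685-62312744) had levels of 5.41 and 4.95 in the +/+ and -/- vehicle pools and 0.0611 and 1.32 in the respective AOM pools. *Insl5* had levels of 11.4 and 9.61 with vehicle and 0.0962 and 1.48 after AOM. *Pyy* had levels of 15.2 and 11.6 with vehicle and 10.6 and 4.25 after AOM. The +/+ AOM pool thus held 1.13% of the vehicle signal of *Gcg* and 0.842% of that of *Insl5*, but 69.9% of that of *Pyy*. In the -/- pools the shares lay nearer to each other, at 26.7% for *Gcg*, 15.4% for *Insl5* and 36.6% for *Pyy*. Between the AOM pools, *Gcg* was 21.6-fold and *Insl5* 15.4-fold higher in -/-, while *Pyy* was 2.49-fold lower.
The change of *Pyy* in +/+ (log2 -0.52) took the opposite sign, 0.50, without scaling between arrays, a setting in which the median of all genes moved from -0.17 to 0.87. *Gcg* was read by 10 spots per array, whose SD on the log2 scale was 0.05 to 0.10, so spot error was small beside its changes. That SD covers 1 array and not the spread between mice.

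*Sst* (chr16:23889776-23889835) had levels of 2.21 and 1.85 in the +/+ and -/- vehicle pools and 0.126 in the -/- AOM pool, and its signal of 0.00800 in the +/+ AOM pool was not well above background. It was at least 176-fold lower after AOM in +/+ and 14.7-fold lower in -/-, and at least 10.04-fold higher in the -/- than in the +/+ AOM pool. With normexp and quantile normalization the log2 change in +/+ was -3.80, and the log2 ratio between the AOM pools was 0.78, no longer past 2-fold. Among the 10 *Sst* spots of the +/+ AOM array, 1 was marked as an outlier and left out. The SD of the kept spots on the log2 scale was 0.58 on that array, against 0.05 to 0.07 on the others.

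*Cck* (chr9:121398943-121399002) was nearly alike in both genotypes. Its levels were 1.57 and 1.78 with vehicle and 0.168 and 0.177 after AOM, a fall of 9.34-fold in +/+ and 10.02-fold in -/-. *Tph1* (chr7:53902553-53902612), the enzyme that sets the rate of serotonin synthesis outside the brain, also ended at like levels, 0.474 and 0.502 after AOM from 2.74 and 1.88 with vehicle. Its fall was 5.78-fold in +/+ and 3.75-fold in -/-. For both genes, the 2 AOM pools differed by a log2 of 0.08.

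*Nts* went the other way from *Chga*, *Gcg* and *Insl5*. Its levels were 6.92 and 6.25 in the +/+ and -/- vehicle pools, 0.541 in the +/+ AOM pool and 0.0165 in the -/- AOM pool. After AOM it was 12.8-fold lower in +/+ and 378-fold lower in -/-, where 4 of 16514 genes fell further. The -/- AOM pool was 32.8-fold below the +/+ AOM pool. Its last reading stood just over 0.0146, the lowest level counted as well above background on that array, so the size of the fold depends on the background correction, and with normexp correction and quantile normalization the log2 ratio between the AOM pools was -2.11 in place of -5.03.

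*Iapp* (chr6:142252275-142252334) was measured clearly in both vehicle pools, at 0.862 in +/+ and 0.729 in -/-. In neither AOM pool was it well above background, with signals of 0.00787 and 0.00719. It was at least 68.6-fold lower after AOM in +/+ and at least 49.8-fold lower in -/-, and the AOM pools cannot be ranked. With normexp correction and quantile normalization the log2 changes were -2.36 and -2.19, so the direction held but the size depends on the background correction. Neither insulin gene was lower past 2-fold in both genotypes. *Ins2*, an insulin gene, read 0.134 and 0.155 with vehicle and 0.0906 and 0.103 after AOM, a log2 change of -0.57 in +/+ and -0.60 in -/-. *Ins1* read 0.0262 and 0.0365 with vehicle and 0.110 in the -/- AOM pool, and its signal of 0.00991 in the +/+ AOM pool was not well above background. Against 0.0126, the lowest level well above background on the +/+ AOM array, *Ins1* was at least 2.08-fold lower after AOM in +/+. From so low a vehicle level, a fall as large as that of *Iapp* could not have been seen. Of the 6 beta cell genes listed that had a value between the vehicle pools, 0 passed 2-fold. *Pdx1*, *Slc2a2*, *G6pc2* and *Slc30a8*, which define the beta cell, were not well above background in either vehicle pool, while *Mafa*, *Nkx6-1* and *Abcc8* were, as was *Iapp*. Exocrine pancreas genes were higher in the -/- vehicle pool for 13 of 14, with a median log2 of 4.26, while *Iapp* there was 1.18-fold below the +/+ vehicle pool. After AOM in -/-, 14 of 14 exocrine genes were lower, and in +/+ 4 were lower and 1 higher of 11 with a value.

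**Figure D2:**
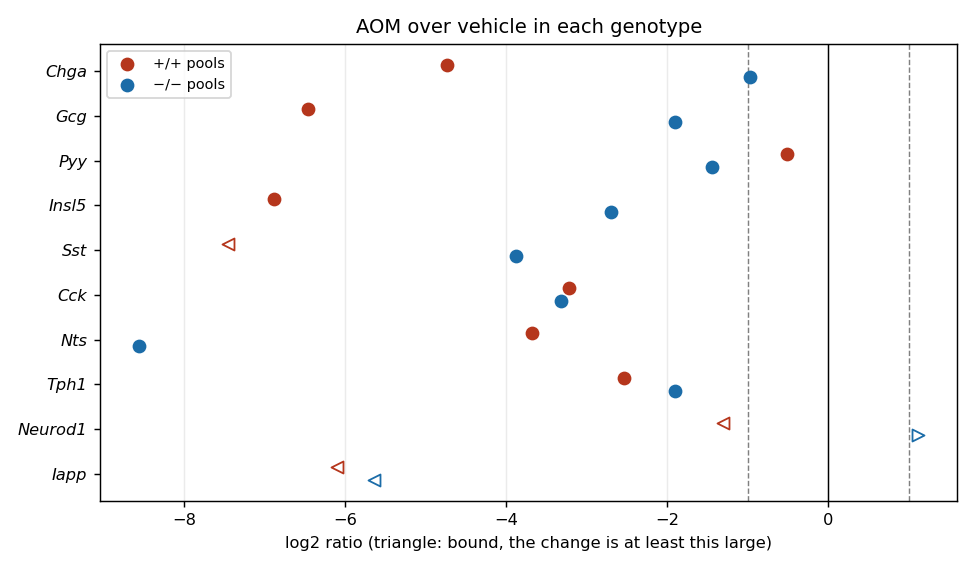
Log2 ratio of AOM to vehicle for each gene in the +/+ and -/- pools, with triangles for bounds where 1 side was not well above background and dashed lines at 2-fold. Gcg (-6.47 and -1.91) and Nts (-3.68 and -8.56) lie far apart in opposite order, and Cck (-3.22 and -3.32) lies nearly at 1 point.

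The change of the genotype ratio from vehicle to AOM set out these groups. The log2 ratio of -/- to +/+ was higher after AOM than with vehicle by 3.76 for *Chga*, 4.56 for *Gcg* and 4.19 for *Insl5*. It was lower by 4.89 for *Nts*, and it differed by -0.93 for *Pyy*, -0.10 for *Cck* and 0.63 for *Tph1*. These are differences of single arrays and were not tested. For *Sst* and *Neurod1* only bounds were available and for *Iapp* no value was.

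**Figure D3:**
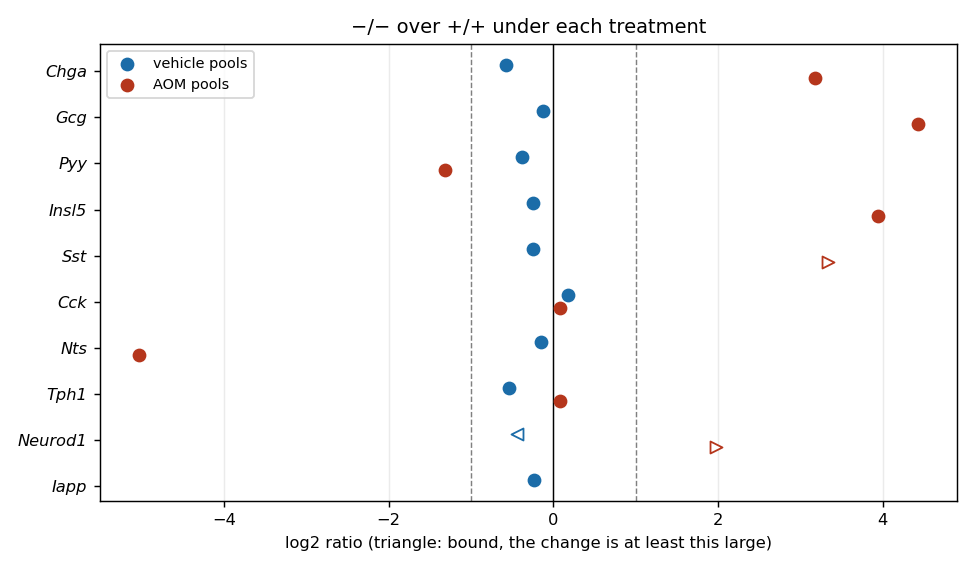
Log2 ratio of the -/- to the +/+ pool for each gene with vehicle and after AOM, with triangles for bounds and dashed lines at 2-fold. Vehicle points lie between -0.58 and 0.18, and AOM points run from -5.03 for Nts to 4.43 for Gcg, with no AOM point for Iapp.

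The products that load and process these hormones were described from a list of 15 granule proteins and processing enzymes, all with values. In +/+, 9 were lower and 2 higher after AOM (median log2 -2.35). In -/-, 4 were lower and 1 higher (median -0.06), and between the AOM pools 9 were higher and 2 lower in -/- (median 1.56). *Chgb*, a granule protein related to *Chga*, read 14.6 and 11.9 with vehicle and 0.952 and 9.06 after AOM in +/+ and -/-. *Scg2*, a further granin, read 1.11 and 0.0236 in the +/+ vehicle and AOM pools, and in -/- its log2 change was 0.09. Both were therefore near their vehicle levels in the -/- AOM pool alone. The prohormone convertase *Pcsk1*, which cuts proglucagon to glucagon-like peptides, was lower in both genotypes, with log2 changes of -2.85 and -2.01. *Pcsk2*, the convertase that makes glucagon, changed by -1.87 and -0.06, and the carboxypeptidase *Cpe* by -2.35 and -0.04. *Cadps*, which primes granules for release, went against the list in +/+, with a log2 change of 4.86 there and 0.13 in -/-.

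Of 12 other gut hormone genes, 9 had a value after AOM in each genotype, of which 6 were lower and 0 higher after AOM in +/+ (median log2 -1.92), and 4 were lower and 1 higher in -/- (median -0.29). Between the AOM pools 11 had a value, with 5 higher and 1 lower in -/- (median 0.83). Secretin (*Sct*) fell in both, from 23.3 to 0.536 in +/+ and from 29.5 to 1.44 in -/-. Tachykinin 1 (*Tac1*), the substance P precursor that enterochromaffin cells and neurons make, fell from 5.67 to 0.486 in +/+ and read 4.92 and 4.02 in the -/- pools. Pancreatic polypeptide (*Ppy*) changed by a log2 of -3.17 in +/+ and 0.14 in -/-. Ghrelin (*Ghrl*), made by X/A-like cells, changed by -1.92 and -1.87, so like *Cck* it was lowered to a near equal extent in both.

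Among 20 endocrine transcription factors 15 had a value in +/+, of which 9 were lower and 2 higher after AOM (median log2 -1.43). In -/-, 1 was lower and 2 were higher (median 0.13), and between the AOM pools 8 were higher and 1 lower in -/- (median 1.18). *Neurog3*, which commits progenitors to the endocrine fate upstream of *Neurod1*, read 0.299 and 0.288 with vehicle and 0.0245 and 0.211 after AOM in +/+ and -/-. *Atoh1*, a factor of the whole secretory lineage, changed by a log2 of -4.19 and -1.15. *Isl1*, which many gut endocrine cells use, was 10.4-fold higher after AOM in +/+ and 5.56-fold higher in -/-. Of the 9 serotonin genes, 8 had a value, with 4 lower and 1 higher in +/+ and 1 lower and 1 higher in -/-. The serotonin transporter *Slc6a4*, which in the gut lies mainly on absorptive epithelium, read 0.397 and 0.325 with vehicle and 0.0443 and 0.728 after AOM.

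**Figure D4:**
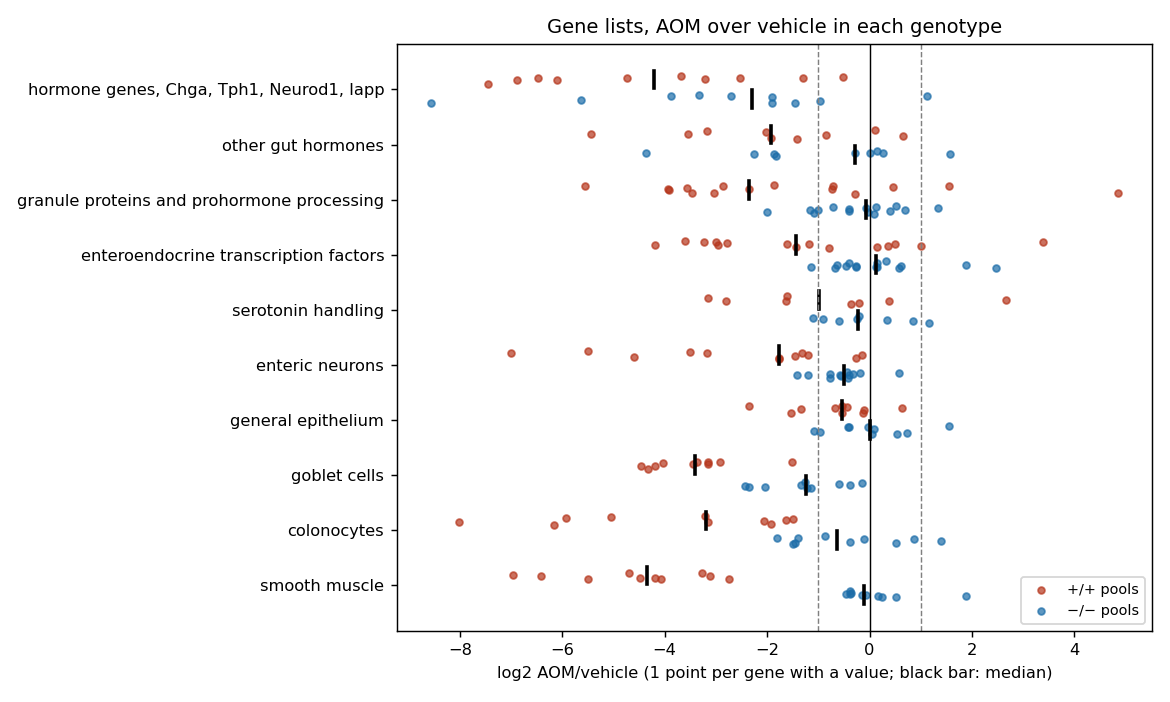
Log2 ratio of AOM to vehicle for every gene with a value in each list, with red points for the +/+ and blue points for the -/- pools, bounds drawn as points, black bars for medians and dashed lines at 2-fold. The medians of the hormone, granule and transcription factor lists lie lower in +/+ than in -/-, and so do those of colonocytes (-3.19 and -0.63), goblet cells (-3.42 and -1.25) and smooth muscle (-4.34 and -0.10).

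A list of 27 genes held receptors of these hormones, the *Ramp* receptor partners and the peptidase *Dpp4*, which is not a receptor. Of these, 21 had a value after AOM in +/+. In +/+, 11 were lower, *Dpp4* among them, 1 was higher and 9 lay within 2-fold (median log2 -1.17). In -/-, 5 were lower and 1 higher of 20 (median -0.59). The somatostatin receptor *Sstr1* changed by -6.36 in +/+ and -0.17 in -/-. The serotonin receptor *Htr4* changed by -4.94 and 0.10. *Ramp1*, a partner of the calcitonin receptor in the amylin receptor, changed by -3.76 and -2.58. *Calcr*, the receptor core bound by amylin, and *Rxfp4*, the receptor of insulin-like peptide 5, were not well above background on any of the 4 arrays. *Sstr5*, a further somatostatin receptor, read log2 changes of -0.25 and 0.04.

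Markers of other cells moved with the AOM comparison in +/+. Of the lists of 10 genes each, 10 of 10 colonocyte, 10 of 10 goblet cell and 10 of 10 smooth muscle genes were lower in the +/+ AOM pool, as were 10 of 12 enteric neuron genes. In -/- the counts lower were 4 of 10, 7 of 10, 0 of 10 and 2 of 12. General epithelial genes moved less, with 3 of 10 lower in +/+ (median log2 -0.54) and 1 lower and 1 higher in -/- (median 0.01). Summed over each list, the level in the order +/+ vehicle, -/- vehicle, +/+ AOM and -/- AOM was 870.7, 867.3, 117.9 and 589.4 for colonocytes, 1741, 1713, 139.6 and 645.6 for goblet cells, and 517.5, 543.0, 31.2 and 498.2 for smooth muscle. For enteric neurons it was 20.4, 18.3, 5.36 and 13.4, and *Prph* and *Vip* were not well above background in the +/+ AOM pool alone. The +/+ AOM pool thus stood apart in each of these lists. It did so too for *Chga*, *Gcg*, *Insl5* and *Sst*, but not for *Nts*, *Pyy*, *Cck* or *Tph1*. Its *Sst* reading was not well above background. With normexp and quantile normalization, *Sst* differed between the AOM pools by log2 0.78, inside 2-fold. *Epcam* read 8.48, 7.65, 5.82 and 8.16 in the order +/+ vehicle, -/- vehicle, +/+ AOM and -/- AOM. Wnt target genes that mark colon tumors were higher for 12 of 12 in the +/+ AOM pool (median 3.06), against 1 higher and 3 lower of 11 in -/-. *Hoxd10* to *Hoxd13*, which mark the distal hindgut, were higher after AOM in both genotypes by log2 1.17 to 1.90 and 2.09 to 3.39, and *Hoxb6* to *Hoxb8* were lower in both, by log2 -3.96 to -2.81 and -2.30 to -1.90. The part of cell makeup and of the position of the sample along the colon in the hormone values was not tested.

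The genes whose levels ran most like those of *Nts* and *Pyy* over the 4 arrays were found by the root mean square difference of mean-centered log2 levels, among genes with the same detection calls. For *Iapp* no order is given, because neither of its AOM readings was well above background. For *Nts*, with 14787, they included *Ang4*, *Ang2*, *Gzma* and *Ang* (0.63 to 1.01). Of these, *Ang4* is an antimicrobial peptide gene of Paneth and goblet cells. *Ang4* changed after AOM by log2 -4.84 in +/+ and -7.83 in -/-. For *Pyy* they included *Cda* (0.10), *Tnip3* (0.11), *Tbc1d10c* (0.11) and *Flywch2* (0.11). The 4 arrays fix these likenesses only as a description.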

How the data were processed

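RNA was hybridized to one-color Agilent arrays of 1 mouse design annotated on mm9. The authors scanned them and deposited Feature Extraction output, whose processed signal is an intensity per spot, with background subtracted, trends across the array removed and surrogate values for low signals (Agilent Feature Extraction 11.5.1.1). The deposited value table holds linear ratios, which the authors made by dividing the signals by 1 number per array, close to the percentile used here. Control spots and outlier spots were left out, spots of 1 probe were averaged, and signals were divided by the 75th percentile of each array over non-control spots. Genes were named from the array file with RefSeq synonyms (GRCm38.p6), and the brightest probe stood for a gene. A side not well above background was replaced by the higher of its own level and the lowest level well above background on its array, giving "at least N-fold", and a gene below on both sides got no fold.

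Members, gene lists and named genes were chosen with earlier results of these data known. All members are named, and a few other genes the rules would name are not reported here. From each list up to 4 genes with the largest change are named, with receptors, processing enzymes, *Ins1*, *Ins2* and *Epcam*. *Ghrl* and the undetected beta cell genes were named after their values were seen. Ratios were computed in Python 3.11.15 (pandas 2.3.3) and normexp with an offset of 50 in limma 3.58.1, and the calculation was tested on simulated signals. The number of arrays, 1 per group, limits the precision. Alternatives covered scaling, background correction, detection, probe choice and threshold.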

Additional observations from a re-analysis of the deposited data

Results flagged for a closer look

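Genes were picked out where 1 comparison gave opposite directions past 2-fold in the other genotype or treatment. With 1 array per group, none of these differences was tested. The log2 ratio of AOM to vehicle in +/+ and then -/- was -1.30 and 1.12 for *Neurod1*, both bounds. It was -3.16 and 1.16 for *Slc6a4*. The glucose transporter *Slc5a1*, through which L cells sense glucose, gave -1.19 and 1.44. *Olfr78*, an acetate and propionate receptor, gave -1.56 and 2.11. *Ins1* gave -1.06, a bound, and 1.59. *Ramp3*, a partner of the calcitonin receptor, went the other way with 3.00 and -1.27. The log2 ratio of -/- to +/+ with vehicle and then after AOM was -1.01 and 2.30 for *Ppy*. For neuropeptide W (*Npw*) it was 1.20 and -1.15.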

How the results depend on the processing

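Over 13 alternative settings, 116 of 130 counts of members stayed within 1.5 times. Of 496 single-gene values, 480 kept their side of the threshold, with 0 reversals of a called gene. Where a gene had 1 probe, well above background on both sides, only changes of scaling or background correction could move its ratio. The settings of detection, probe choice and threshold and the deposited values left it the same or nearly so. Much of this agreement was therefore fixed in advance, and settings that gave a gene no value were not counted. The 5 genes higher in -/- after AOM became 3 with normexp and quantile normalization and 3 when both arrays had to be well above background, and the 2 lower became 1 at a 4-fold threshold. The 1 gene higher after AOM in -/-, *Neurod1*, became 0 with normexp and quantile normalization, with both arrays above background, with the mean over probes, with the dimmest probe and at 4-fold. The 8 lower became 5 at 4-fold. Genes whose genotype ratio was over 2-fold higher after AOM than with vehicle, bounds included, numbered 5, and 3 with both arrays above background. Those over 2-fold lower numbered 1, and 2 with quantile normalization, no scaling, normexp or a 1.5-fold threshold. Under normexp, *Sst* between the AOM pools was log2 0.78 and *Neurod1* 0.34. *Pyy* after AOM in -/- was -0.60 without scaling. Of all genes past 2-fold after AOM, 59.7% in +/+ and 61.0% in -/- were lower, against 13.7% and 8.90% without scaling, 48.0% and 46.6% with the percentile over detected probes, and 48.3% and 48.9% with normexp. The cause of these changes was not tested. No paired analysis was possible because each group has 1 array. Signal near background limits *Neurod1*, *Iapp*, *Sst* and *Nts* after AOM.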

Other observations

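Of 12 nutrient and bile acid sensors of enteroendocrine cells, 9 had a value after AOM in each genotype. In +/+, 5 were lower and 1 higher (median log2 -1.19), and in -/- 1 was lower and 2 were higher (median -0.37). *Ffar2*, a receptor of short-chain fatty acids, was lower in both, from 2.16 to 0.0901 in +/+ and from 2.11 to 0.120 in -/-. *Trpa1*, an irritant channel of enterochromaffin cells, read 0.0529 and 0.759 in the +/+ vehicle and AOM pools and 0.0716 and 0.0603 in the -/- pools. *Ffar1*, *Gpr142* and *Casr* were not well above background on any of the 4 arrays. Of 8 tuft cell genes, 6 had a value, of which 3 were lower in +/+ and 4 in -/-, and 0 were higher in either.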
